A study of Arabidopsis thaliana with 3 samples.

Results

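The 9 ATG8 genes of Arabidopsis thaliana, ATG8A to ATG8I, and NBR1 were read out in whole wild-type Col-0 seedlings. The 10 genes were taken by their AGI locus identifiers out of 27416 genes listed in the deposited files, and 10 of 10 were found. The plants were unmodified Col-0, the common laboratory accession, 3 weeks old, raised on plates of MS medium at 23 ± 2 °C in long days (16 h light, 8 h dark), and sampled as whole plants. There was 1 group of 3 libraries, numbered 4, 5 and 6 in the labels, made from total RNA after removal of ribosomal RNA. With 1 group there is no second condition, so the data give levels of genes and the spread between libraries. The labels do not say whether the libraries came from separate plants, so the SDs below measure the spread between libraries, which may be technical. Values are FPKM, a read number scaled by gene model length and library total, a unit that allows levels of genes of different length to be compared.

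Autophagy delivers cytoplasm to the vacuole inside double-membraned vesicles. ATG8 is a ubiquitin-like protein that is trimmed by the protease ATG4 so that a glycine becomes its last residue, and that glycine is then joined to the lipid phosphatidylethanolamine in the growing membrane. Membrane-bound ATG8 holds cargo receptors such as NBR1, which binds ubiquitinated proteins and aggregates and is itself broken down in the vacuole.

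The coding ends of the 9 ATG8 genes are shown because the residues behind the glycine divide the family. Each run starts 8 codons before the glycine and ends with the stop codon, 5′ to 3′ on the coding strand, with the glycine codon in capitals. The sequences and positions are from RefSeq, build TAIR10.1. Where a gene has several annotated coding sequences, the most common one that holds the glycine was used, or the shortest of equally common ones.
ATG8A (chr4:11656765-11656809, + strand): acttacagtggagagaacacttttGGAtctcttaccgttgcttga
ATG8B (chr4:2328663-2328707, - strand): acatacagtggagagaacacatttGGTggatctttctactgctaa
ATG8C (chr1:22934218-22934253, + strand): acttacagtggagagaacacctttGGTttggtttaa
ATG8D (chr2:2083211-2083249, - strand): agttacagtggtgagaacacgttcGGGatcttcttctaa
ATG8E (chr2:18625485-18625526, + strand): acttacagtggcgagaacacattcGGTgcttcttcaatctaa
ATG8F (chr4:9306882-9306923, - strand): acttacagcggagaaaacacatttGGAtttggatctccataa
ATG8G (chr3:22416930-22416971, + strand): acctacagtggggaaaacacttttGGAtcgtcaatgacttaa
ATG8H (chr3:1955219-1955248, - strand): tgctacagcaccgagaaaactttcGGCtaa
ATG8I (chr3:5274075-5274104, - strand): tgctatagcagtgagaaaacctttGGTtga

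Behind the glycine codon, ATG8A and ATG8B encode 5 further residues, ATG8E, ATG8F and ATG8G encode 4, ATG8D encodes 3 and ATG8C encodes 2. In ATG8H and ATG8I the stop codon follows at once, with 0 residues between, so these proteins end in the glycine without trimming. The glycine is residue 117 in ATG8A, ATG8B, ATG8C, ATG8D, ATG8F and ATG8G, residue 118 in ATG8E, residue 119 in ATG8H and residue 115 in ATG8I. The proteins so read have 115 to 122 residues. ATG8A, ATG8C and ATG8D also have an annotated coding sequence of another length, with 137, 94 and 164 residues, and the shorter form of ATG8C lacks the glycine end.

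Identity between the encoded proteins, over aligned residues, set ATG8H and ATG8I apart and divided the other blocks less cleanly. Within ATG8A to ATG8D it was 78.3% to 87.7% in 6 pairs, and within ATG8E to ATG8G it was 78.5% to 83.5% in 3 pairs. Between these blocks it was 68.6% to 80% in 12 pairs, so the ranges overlap: ATG8D and ATG8F, at 80%, were more alike than ATG8B and ATG8D at 78.3%. ATG8H and ATG8I were 67.8% identical to each other. They shared 50.4% to 56.5% of residues with ATG8A to ATG8D and 47.9% to 56.5% with ATG8E to ATG8G. At the level of reads the genes are well separated. Of the distinct 50-base words in their transcripts, ATG8A and ATG8B share 4, which is 0.424% of the words of ATG8A and 0.307% of those of ATG8B. The other 7 ATG8 genes share 0 words with another ATG8 gene.

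For NBR1, the stretch that codes for its ATG8-interacting motif is shown, since it is the site at which the receptor and the ATG8 proteins meet. The capitals mark 4 codons, a tryptophan, any pair of residues and an isoleucine, at residues 661 to 664 of 704.
NBR1 (chr4:12743978-12744013, + strand): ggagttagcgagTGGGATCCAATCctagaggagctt
The same search (tryptophan, any pair, then leucine, isoleucine or valine) found 3 matches in NBR1, the others at residues 279 to 282 and 481 to 484. A match is a description of the letters and shows no binding by itself.

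All 10 genes were expressed in every library, at levels that spanned more than an order of magnitude. Each of the 10 reached 1 FPKM in all 3 libraries, as did 63.0% of 27197 nuclear protein-coding genes. That background also holds nuclear identifiers that RefSeq does not list, which were taken as protein-coding. Each of the 10 was also above the median gene of that background, which had 4.71 FPKM. The median of the 10 was 35.1 FPKM. On the log2(FPKM + 1) scale it lay 2.62 above the background median, with 2.59 to 2.66 in single libraries, or 1.36 when the background was limited to genes averaging at least 1 FPKM. The tissue is bulk, so fewer cells with a transcript and less of it per cell cannot be told apart.

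**Figure D1:**
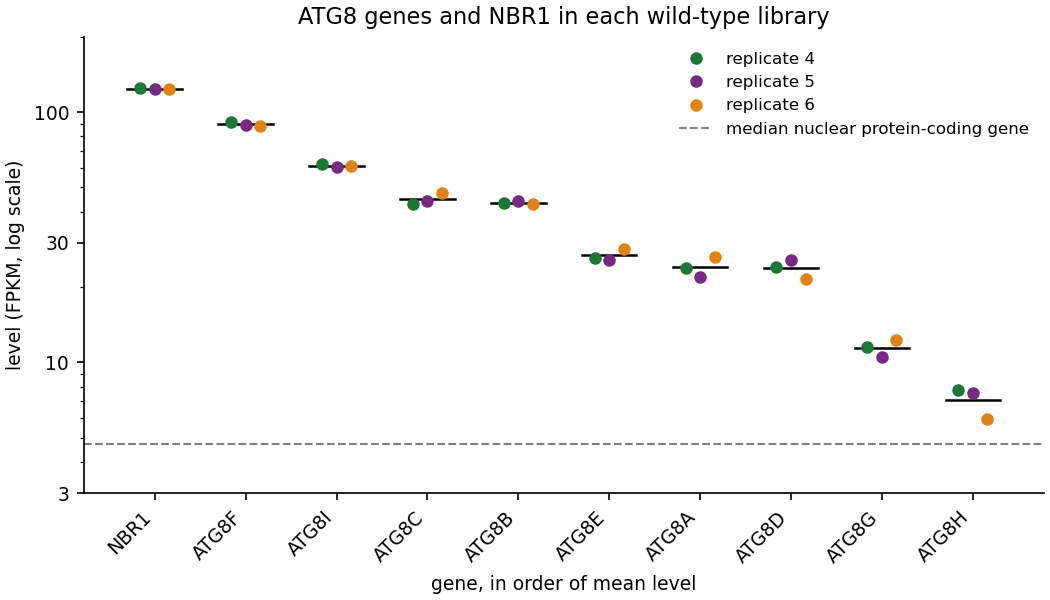
Level of each gene in FPKM (log axis) in replicates 4, 5 and 6 (points) with the mean (line), ordered by mean; the dashed line is the median nuclear protein-coding gene at 4.71 FPKM. NBR1 is highest at 124 FPKM, ATG8F leads the ATG8 genes at 89.3 FPKM, and ATG8H is lowest at 7.08 FPKM, still above the dashed line.

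NBR1 (AT4G24690, chromosome 4, 12741032 to 12744670, TAIR10.1) was the highest of the 10. It had 124.2, 123.4 and 123.8 FPKM in replicates 4, 5 and 6, a mean of 124 ± 0.434 FPKM (SD, n = 3), which is above 96.6% of nuclear protein-coding genes. Its 3 libraries were closer together than those of any ATG8 gene, with a coefficient of variation of 0.351%. NBR1 also had the most reads of the 10 genes, and counting alone gives 1.25% for it.

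Among the ATG8 genes, ATG8F (AT4G16520, chromosome 4, 9306339 to 9308538) was highest. It had 91.6, 88.5 and 87.9 FPKM in replicates 4, 5 and 6, a mean of 89.3 ± 1.99 FPKM, above 95.1% of nuclear protein-coding genes. NBR1 exceeded it in 3 of 3 libraries, by 1.39 ± 0.0269 times.

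ATG8I (AT3G15580, chromosome 3, 5273526 to 5275095), one of the genes whose product ends in the glycine, was second. It had 62.1, 60.1 and 60.9 FPKM, a mean of 61.0 ± 1.03 FPKM, above 92.6% of the background. RefSeq lists this locus under the symbol APG8H, and the letter used here goes by the locus identifier. ATG8H (AT3G06420, chromosome 3, 1954990 to 1956397), the other gene of that kind, was the lowest of the family, at 7.76, 7.55 and 5.93 FPKM and a mean of 7.08 ± 0.999 FPKM. On the deposited values ATG8F exceeded ATG8H by 12.8 ± 1.77 times, the full span of the ATG8 genes. Per kilobase of the longest RefSeq transcript, ATG8F had 57.0 FPKM, ATG8H 7.08 FPKM and ATG8G, then the lowest, 6.60 FPKM.

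ATG8C and ATG8B stood side by side in the middle. ATG8C (AT1G62040, chromosome 1, 22932760 to 22934549) had 42.9, 44.0 and 47.5 FPKM in replicates 4, 5 and 6, a mean of 44.8 ± 2.43 FPKM. ATG8B (AT4G04620, chromosome 4, 2328442 to 2330590) had 43.3, 44.1 and 42.7 FPKM, a mean of 43.4 ± 0.673 FPKM. Their ranges overlapped, and ATG8C was the higher of them in 1 of 3 libraries.

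ATG8E, ATG8A and ATG8D formed a lower step. ATG8E (AT2G45170, chromosome 2, 18624264 to 18625791) had 26.0, 25.8 and 28.5 FPKM, a mean of 26.7 ± 1.497 FPKM. ATG8A (AT4G21980, chromosome 4, 11655562 to 11657034) had 23.8, 22.0 and 26.3 FPKM, a mean of 24.05 ± 2.16 FPKM. Both were highest in replicate 6. ATG8D (AT2G05630, chromosome 2, 2082894 to 2084905) had 23.9, 25.7 and 21.6 FPKM, a mean of 23.8 ± 2.08 FPKM, and was lowest in that replicate.

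ATG8G (AT3G60640, chromosome 3, 22415751 to 22417548) was next to last. It had 11.6, 10.5 and 12.3 FPKM in replicates 4, 5 and 6, a mean of 11.5 ± 0.867 FPKM. Its level was above 65.8% of nuclear protein-coding genes, and that of ATG8H above 56.4%. Of the other 7 ATG8 genes, 2 were above the 90th percentile and 5 lay between the 80th and the 90th.

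Along this order 7 of 9 neighbouring pairs differed by more than the spread of their difference, with the same sign in 3 of 3 libraries. The order was itself taken from the means of these libraries, which favours a shared sign. The smallest of those steps was ATG8E over ATG8A, 0.15 ± 0.058 on the log2(FPKM + 1) scale. ATG8C and ATG8B differed by 0.045 ± 0.091, and ATG8A and ATG8D by 0.016 ± 0.25, so their order is not set by these libraries. The smallest p that 3 libraries allow in an exact sign-flip test (two-sided) is 0.25, and no test was made. Per kilobase of the longest RefSeq transcript in place of the length behind the deposited values, 2 further steps turned: ATG8B was then at 24.2 against 25.02 FPKM for ATG8E, and ATG8G at 6.60 against 7.08 FPKM for ATG8H. On that length, an alternative chosen after seeing the data, ATG8B, ATG8C, ATG8F, ATG8G and ATG8I were lower by more than 1.5 times, since the deposited values imply lengths of 623 to 803 bases for them where RefSeq has 992 to 1259. Without replicate 6, the differences of ATG8C over ATG8B and of ATG8A over ATG8D changed sign, to -0.0074 and -0.11.

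A few genes carried most of the family's RNA. The 9 ATG8 genes summed to 332.9, 328.2 and 333.7 FPKM in replicates 4, 5 and 6, a mean of 332 ± 2.94 FPKM. ATG8F held 26.9 ± 0.585% of that sum, ATG8I 18.4 ± 0.222% and ATG8C 13.5 ± 0.688%, together 58.8 ± 0.197%. ATG8B followed with 13.1 ± 0.318%. The smallest shares were 3.45 ± 0.233% for ATG8G and 2.14 ± 0.311% for ATG8H.

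**Figure D2:**
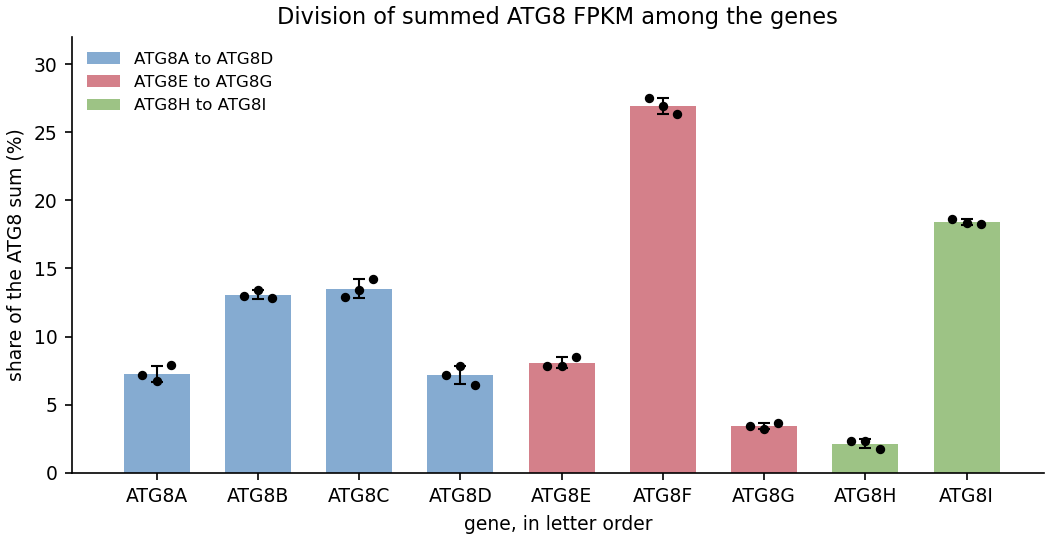
Share of the summed ATG8 FPKM held by each gene, in percent, as mean (bar), SD over 3 libraries (error bar) and single libraries (points, replicates 4, 5 and 6 from left to right), coloured by letter block. ATG8F holds 26.9%, ATG8I 18.4% and ATG8H 2.14%.

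Summed by letter block, ATG8A to ATG8D held 41.0 ± 0.687%, ATG8E to ATG8G 38.5 ± 0.403% and the block without residues behind the glycine, ATG8H and ATG8I, 20.5 ± 0.481%. The sum of the first block exceeded that of the second by a log2 ratio of 0.093 ± 0.037, with 0.052, 0.12 and 0.10 in replicates 4, 5 and 6. It exceeded that of ATG8H and ATG8I by 0.997 ± 0.055. The sum of ATG8E to ATG8G exceeded that of ATG8H and ATG8I by 0.90 ± 0.034. Each of these ratios was above 0 in 3 of 3 libraries. Per gene the blocks were closer, with means of 34.0 ± 0.542, 42.5 ± 0.800 and 34.1 ± 0.786 FPKM for ATG8A to ATG8D, ATG8E to ATG8G and ATG8H with ATG8I.

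Genes that encode similar proteins were often at unlike levels. Each ATG8 was set beside the ATG8 with the most identical protein, a choice made by sequence alone, which gave 6 pairs. ATG8I exceeded ATG8H by 8.75 ± 1.32 times and ATG8F exceeded ATG8G by 7.82 ± 0.619 times, at 67.8% and 79.3% protein identity. ATG8F exceeded ATG8E, with 83.5% identity, by 3.35 ± 0.229 times. In the first block the steps were smaller. ATG8B exceeded ATG8A, its closest relative at 87.7% identity, by 1.81 ± 0.188 times. ATG8C exceeded ATG8A by 1.87 ± 0.112 times and ATG8D by 1.90 ± 0.263 times. In each of the 6 pairs the sign was the same in 3 of 3 libraries. The size of 5 of the 6 gaps depends on the gene length used. Per kilobase of the longest RefSeq transcript, on the log2(FPKM + 1) scale, the gap of ATG8B over ATG8A was 0.090, against 0.83 as deposited, so nearly all of it went. ATG8C over ATG8A was then 0.32 against 0.87, and ATG8C over ATG8D 0.38 against 0.89. ATG8F over ATG8E was 1.16 against 1.70, and ATG8I over ATG8H 2.29 against 2.95. ATG8F over ATG8G was 2.93 against 2.86.

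**Figure D3:**
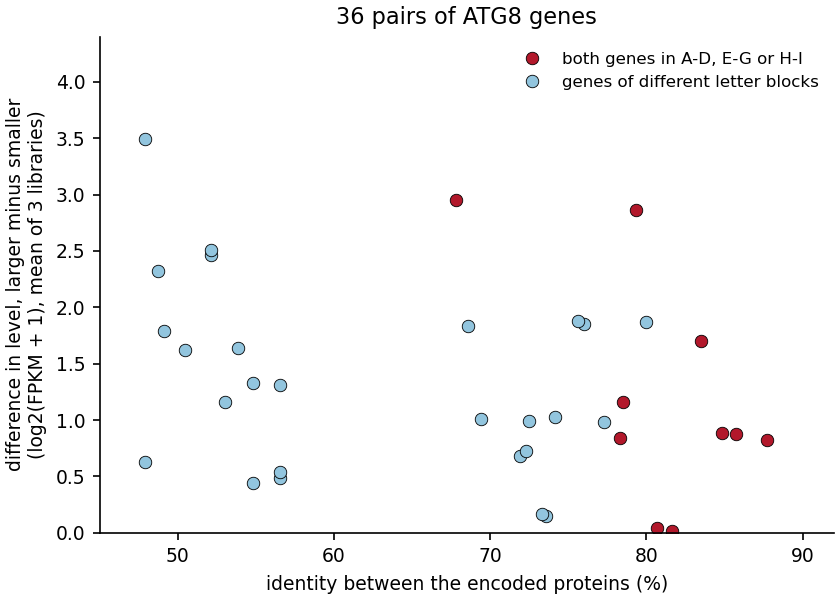
Each point is 1 of 36 pairs of ATG8 genes, with the identity of the encoded proteins in percent on the x axis and the difference in level on the log2(FPKM + 1) scale, mean of 3 libraries, on the y axis. The 10 pairs within a letter block (red) run from 0.016 to 2.95 and the 26 pairs between blocks (blue) from 0.15 to 3.49, so both ranges overlap broadly.

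Over all 36 pairs, which share genes and libraries and are not independent, the median difference in level was 0.88 on the log2(FPKM + 1) scale in the 10 pairs within a letter block and 1.24 in the 26 pairs between blocks.

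NBR1 was compared with its binding partners. Its FPKM was 0.373 ± 0.00243 times the ATG8 sum, or -1.42 ± 0.0094 as a log2 ratio, with NBR1 the lower in 3 of 3 libraries. It was 4.64 ± 0.251 times the median ATG8 gene. NBR1 has a far longer transcript, and in reads, which are not per length, the ratio turned. NBR1 had 6445, 6395 and 6413 reads in replicates 4, 5 and 6, a mean of 6418 ± 25.3, and the 9 ATG8 genes together had 4855, 4782 and 4860 reads, a mean of 4832 ± 43.7. The ratio in reads was 1.33 ± 0.0089.

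The spread between libraries was small. The library totals recovered from the values were 19921241, 19905762 and 19892527 reads in replicates 4, 5 and 6. Reads per gene and library ran from 84 for ATG8H in replicate 6 to 6445 for NBR1 in replicate 4. The SD on the log2(FPKM + 1) scale had a median of 0.076 over the 10 genes, from 0.0050 for NBR1 to 0.19 for ATG8H, beside 0.062 over 17483 nuclear genes at a mean of 1 FPKM or more. The highest library exceeded the lowest more than 2-fold in FPKM + 1 in 0 of the 10 genes and in 14 of those 17483. The highest ratio in FPKM was 1.31 for ATG8H, with 110, 107 and 84 reads. Without replicate 6 the median SD of the 10 genes was 0.030.

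The coefficient of variation was above that of counting alone in 5 of 10 genes, namely ATG8A, ATG8C, ATG8D, ATG8E and ATG8H. The share of all nuclear genes above counting alone was not computed, so this count does not set the 10 genes apart. ATG8A varied by 8.97% where counting gives 4.97%, and ATG8D by 8.75% where counting gives 5.27%. ATG8A had 401, 371 and 443 reads in replicates 4, 5 and 6, and ATG8D had 363, 390 and 327 reads. Replicate 6 was thus the highest library for ATG8A and the lowest for ATG8D. ATG8B, ATG8F, ATG8G, ATG8I and NBR1 varied by less than counting alone gives, for example 1.55% against 4.07% in ATG8B. Over the 10 genes the variance of reads was a median of 1.01 times the mean, beside 1.03 in 13555 nuclear genes with 80 or more reads per library on average. With so few libraries, counting alone gives a median of this ratio below 1. These medians therefore do not show that counting was the only source of spread.

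**Figure D4:**
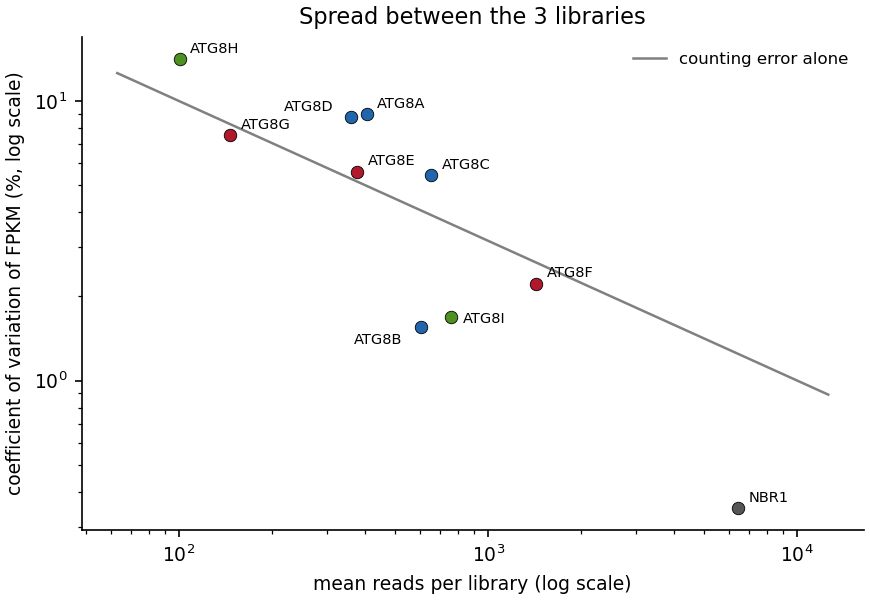
Coefficient of variation of FPKM over 3 libraries, in percent, against mean reads per library, both on log axes, for the 10 genes, coloured by letter block (blue for A to D, red for E to G, green for H and I) with NBR1 in grey; the line is counting error alone. ATG8A (8.97%) and ATG8D (8.75%) lie above the line, and NBR1 (0.351%) lies below it.

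Genes on the opposite strand overlap 3 of the 10. The sources used here do not say whether reads were assigned by strand, so reads in the overlaps are less certain. ATG8A shares 27 bases with APR3 (AT4G21990), an enzyme of sulfate assimilation, which had 65.8 ± 0.206 FPKM. NBR1 shares 101 bases with AT4G24700, at 14.6 ± 1.08 FPKM. ATG8I contains the whole of AT3G15578, a gene of 183 bases that was listed at 0 in every library.

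The median of the enzymes that process and attach ATG8 was below that of the ATG8 genes, 26.7 FPKM. Of 9 genes of the conjugation machinery, 9 reached 1 FPKM in each library, beside 63.0% of nuclear protein-coding genes. The median of the 9 was 13.1 FPKM. ATG3, which transfers ATG8 to the lipid, was highest at 25.7 ± 0.400 FPKM, followed by ATG5, part of the complex that directs this transfer, at 18.24 ± 0.391 FPKM. The proteases that expose the glycine differed, with ATG4A at 8.38 ± 0.565 FPKM and ATG4B at 18.20 ± 1.71 FPKM, a log2(FPKM + 1) difference of -1.03 ± 0.18 with ATG4B higher in 3 of 3 libraries. Of the genes for the ubiquitin-like protein ATG12, ATG12A had 13.1 ± 0.721 FPKM and ATG12B 2.82 ± 0.144 FPKM, a difference of 1.88 ± 0.065. ATG12B was the lowest of the list.

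By median, upstream complexes were lower still. With means over genes of log2(FPKM + 1), conjugation lay 0.86 and the initiation kinase complex 0.93 above the background. The phosphatidylinositol 3-kinase complex then lay 0.845 above it, so the initiation complex was not below conjugation by that summary. The initiation kinase complex, which starts autophagy and is held back by the TOR kinase, had a median of 11.9 FPKM over 8 genes. Of these 8 reached 1 FPKM, beside 63.0% of nuclear protein-coding genes. ATG101 was highest at 16.4 ± 0.788 FPKM. ATG13A had 14.2 ± 0.736 FPKM and ATG13B 3.22 ± 0.124 FPKM, a log2(FPKM + 1) difference of 1.85 ± 0.031 in 3 of 3 libraries. The 6 genes of the phosphatidylinositol 3-kinase complex, which marks the forming membrane, had a median of 10.2 FPKM, led by ATG14B (16.4 ± 0.716 FPKM) and the catalytic subunit VPS34 (12.7 ± 0.904 FPKM). ATG14A was lowest at 4.11 ± 0.165 FPKM, below ATG14B by a log2(FPKM + 1) difference of -1.77 ± 0.018.

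The 10 genes of ATG9, ATG2 and the ATG18 family, which bring lipid to the membrane, had a median of 7.34 FPKM. ATG18G (15.9 ± 0.357 FPKM) and ATG18A (14.4 ± 0.506 FPKM) were highest. ATG18E was listed at 0 throughout. Over its longest RefSeq transcript, 3 counts would be 0.119 FPKM, a limit for counting error only that is higher if the authors' gene model is shorter, as it was for several ATG8 genes. ATG18E was the one gene of the 44 other autophagy genes that missed 1 FPKM.

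**Figure D5:**
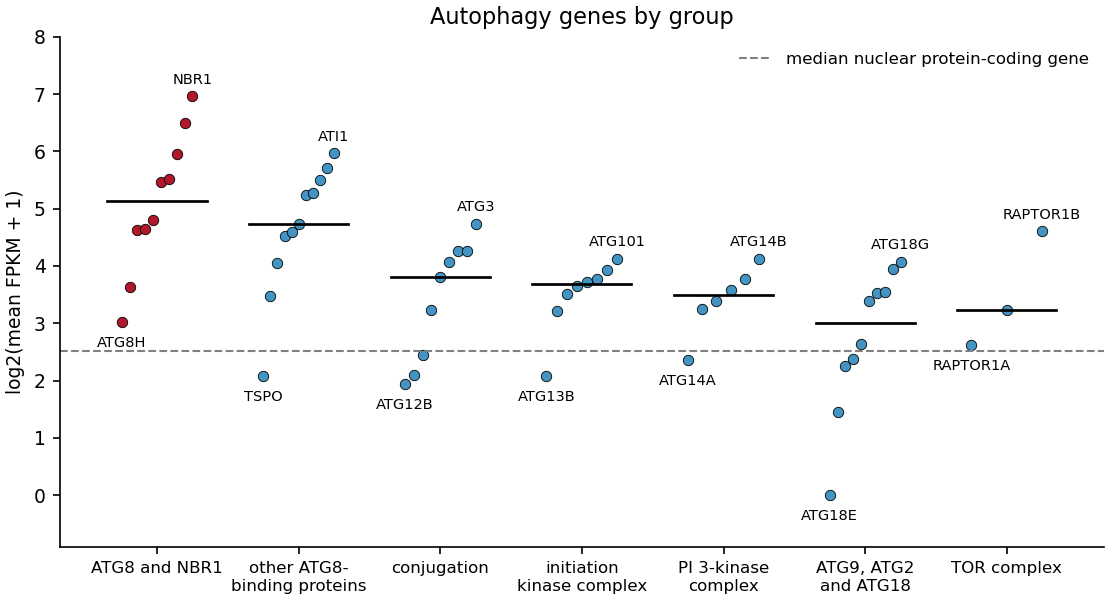
Level of each gene as log2(mean FPKM + 1), by group, with the group median (line) and the median nuclear protein-coding gene (dashed line); the highest and lowest gene of each group are named. On the deposited values ATG8 and NBR1 have the highest median, 35.1 FPKM, followed by other ATG8-binding proteins at 25.7 FPKM, and ATG18E lies at 0. This order was not tested on another gene length.

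On the deposited values, other proteins that bind ATG8 were nearest to the ATG8 genes in level. Of 11 such genes 11 reached 1 FPKM, as did 63.0% of nuclear protein-coding genes. The median of the 11 was 25.7 FPKM. Per kilobase of the longest RefSeq transcript, ATG8E and ATG8B, in the middle of the 10 members, had 25.02 and 24.2 FPKM. Whether the members stay above the 11 genes on that length was not tested. ATI1, an ATG8-interacting protein of the endoplasmic reticulum and plastids, was highest at 61.7 ± 1.12 FPKM, followed by the ubiquitin receptor DSK2B at 51.04 ± 0.770 FPKM. Both were below NBR1 and ATG8F. TSPO, a membrane protein that is removed by autophagy, was lowest at 3.24 ± 0.621 FPKM.

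Set beside the background on the log2(FPKM + 1) scale, the lists had medians 1.304 higher for conjugation, 1.18 for the initiation kinase complex, 0.98 for the phosphatidylinositol 3-kinase complex, 0.50 for ATG9, ATG2 and ATG18 and 2.23 for other ATG8-binding proteins. Against genes at a mean of 1 FPKM or more these became 0.046, -0.080, -0.28, -0.76 and 0.97. The ATG8 genes alone lay 2.28 above all nuclear genes and 1.03 above those that reached that mean.

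Markers of conditions in which autophagy is known to be active stood at unlike levels. DIN10 and SEN1, which are raised in dark and sugar-starved leaves, had 199.9 ± 2.68 and 49.6 ± 1.504 FPKM. They were the highest of 7 such markers, whose median was 9.998 FPKM. The dark-induced asparagine synthetase gene DIN6 had 12.7 ± 0.259 FPKM, SGR1, which acts in chlorophyll breakdown, 9.998 ± 0.641 FPKM, and the senescence regulator ORE1 9.18 ± 0.485 FPKM. The senescence genes SAG12 and SAG13 were listed at 0, where 3 counts over the longest RefSeq transcript would be 0.115 FPKM in SAG12 and 0.110 FPKM in SAG13, or more on a shorter gene model. The labels do not give the hour of harvest. TOR, the kinase that holds autophagy back, had 8.34 ± 0.488 FPKM, and its partners RAPTOR1B and RAPTOR1A had 23.3 ± 0.896 and 5.14 ± 0.0982 FPKM.

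The label of whole plants was checked against markers of shoot and root. Of 5 shoot markers 4 reached 1 FPKM, beside 63.0% of nuclear protein-coding genes. The shoot list was led by LHCB1.3 and RBCS1A, and the trichome regulator GL1 had 0.829 ± 0.368 FPKM. Of 8 root markers 4 reached 1 FPKM, beside the same 63.0%. Highest of these 4 were SCR (14.6 ± 0.0656 FPKM) and SHR (10.4 ± 0.369 FPKM), both of which leaves also express. The others were the phosphate transporter gene PHT1;1 at 7.48 ± 0.506 FPKM, with 267, 283 and 247 reads in replicates 4, 5 and 6, and CASP1, a gene of the root endodermis, at 4.27 ± 0.733 FPKM, with 73, 85 and 60 reads. Below 1 FPKM were MYB36 at 0.608 ± 0.0997 FPKM, WOX5 at 0.134 ± 0.0670 FPKM, COBL9 at 0.0701 ± 0.0468 FPKM and the root hair gene EXPA7 at 0.0162 ± 0.0281 FPKM. WOX5 had 1, 3 and 2 reads in replicates 4, 5 and 6, and COBL9 had 1, 3 and 5. The summed level of the 8 root markers was 36.2 to 38.6 FPKM over the libraries, with SCR and SHR the largest parts. Relative to the background median on the log2(FPKM + 1) scale, the median of the root list lay at -0.97 and that of the shoot list at 1.74. How much root RNA the libraries held, and its part in the levels of the ATG8 genes, was not tested.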

How the data were processed

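RNA of 3 wild-type libraries was analysed. The deposited values carry no unit in their headers. They are treated as FPKM computed by the authors, because Cufflinks 2.1.1 is listed in the submitters' processing notes, beside TopHat2 2.0.9 and the build TAIR10. RPKM would look the same. How strand and multiply matching reads were handled is not given in the sources used here.

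Library totals were those at which values times annotated length gave whole reads, and differed by 0.144%. With them 99.4% of 20497 annotated genes above 0 throughout came out whole, within 0.0001 reads plus 1e-09 of the reads, at the smallest length that fitted all 3 libraries. Reads were used where that length was 0.55 to 1.1 times the longest RefSeq transcript. This held for 10 of 10 members and for 18154 of the 20497 genes. The recovery was tested on simulated data. The simulated lengths did not go down to those implied for ATG8B and ATG8G, 55.9% and 57.6% of the longest RefSeq transcript. Intervals and limits of zeros cover counting error only.

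Levels are means ± SD of FPKM, and differences use log2(FPKM + 1). No model was fitted, as there is 1 group. The background, called nuclear protein-coding genes, was 27197 identifiers of the nuclear chromosomes. It left out those with another RefSeq gene type and kept those without a type or not listed by RefSeq. A gene counted as expressed at 1 FPKM or more in every library. Positions and coding sequences are from RefSeq (TAIR10.1), which matched 26719 of 27416 identifiers and 10 of 10 members. The files hold no coordinates. Proteins were translated from RefSeq coding sequences and aligned with Biopython 1.88 (BLOSUM62). Literature names were tied to loci by hand. All members were named, and of each other list the 2 highest genes, the lowest and the paralogue pairs. DIN6, SGR1, ORE1, PHT1;1, CASP1, MYB36, WOX5 and COBL9 fall outside this rule and were chosen after their values were seen. The members and lists were chosen with earlier results of these data known. Likeness of pattern to other genes was not measured, since 3 replicate libraries hold no condition. Alternatives were the pseudocount, the background, the summary over members, rescaling, reads in place of FPKM, another gene length and leaving out each library.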

Additional observations from a re-analysis of the deposited data

How the results depend on the processing

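With 1 library left out, 162 recomputed values kept their direction and size and 3 did not. The exceptions came without replicate 6: the log2(FPKM + 1) difference ATG8C minus ATG8B ran from -0.0074 to 0.074 over the left-out libraries, ATG8A minus ATG8D from -0.11 to 0.13, and the median SD of the members was 0.030. Gene length mattered more. Per kilobase of the longest RefSeq transcript, chosen after seeing the data, the ATG8 sum was 231.5 FPKM and the share of ATG8F 24.6%. The log2 ratios of block sums were then 0.14 (A-D over E-G), 1.103 (A-D over H-I) and 0.96 (E-G over H-I), and NBR1 over the ATG8 sum was -0.98. Differences were 0.090 for ATG8B minus ATG8A, 0.32 for ATG8C minus ATG8A, 0.38 for ATG8C minus ATG8D, 1.16 for ATG8F minus ATG8E and 2.29 for ATG8I minus ATG8H. The steps ATG8B minus ATG8E (-0.043) and ATG8G minus ATG8H (-0.083) turned. The step NBR1 minus ATG8F grew to 1.03, against 0.47 as deposited. The medians of the gene groups were not recomputed on that length. In reads without division by length, ATG8F held 29.5%, the same block ratios were 0.053, 1.24 and 1.19, and NBR1 over the ATG8 sum turned to 0.41. With a pseudocount of 0.1 the members lay 2.83 and the other autophagy genes 1.32 above the background, and with means over members 2.54 and 1.02. Against genes at a mean of 1 FPKM or more the members stayed above (1.36), while the other autophagy genes (-0.080), the initiation kinase complex (-0.080), the phosphatidylinositol 3-kinase complex (-0.28), ATG9, ATG2 and ATG18 (-0.76), the TOR complex (-0.55) and the markers of dark, starvation and senescence (-0.31) fell below. Rescaling each library to a fixed sum moved all 10 member levels, to 169.1 FPKM for NBR1 and 9.67 FPKM for ATG8H. No paired analysis was possible because there is 1 group. Depth limits ATG8H most, with 84 to 110 reads per library.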
